A study of Homo sapiens with 4 samples.

Results

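The genes described here are EPOR, CLIC5, DSC3, BIRC7 and TCFL5, 5 protein-coding genes known from expression studies as marks of leukemia with the ETV6/RUNX1 fusion. The rule that picks them uses their names and positions and no measured value, but the set was put together with earlier results of these data known. Each was placed by its gene body on the genome build hg19, given in whole kb, so distances from a 5′ end below are from this rounded end, and 10 kb were added on each side to form its window. A peak belonged to a gene when it overlapped this window by at least 1 bp. Of 44626 H3K27ac peaks in REH, 19 lay in the 5 windows, and of 74504 peaks in 697, 15 did. The mark was profiled with 1 ChIP-seq library of REH, a B-cell precursor leukemia (BCP-ALL) cell line with the ETV6/RUNX1 fusion and a deletion of its other ETV6 allele, and 1 library of 697, a BCP-ALL cell line that lacks this fusion, and an input DNA library of each cell line served as its control. Both cell lines were cultured in RPMI with serum and received no drug or knockdown, and 1 cell line stands for each fusion status, so the fusion cannot be told apart from any other difference between the lines. There were no replicate libraries, so no difference below has a replicate check and none was tested. RNA was not measured in these files, so the expression that gives the gene set its name was not examined, and neither were markers of B-cell precursors, for which no hg19 positions were at hand.

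ETV6/RUNX1 joins the N-terminal part of the repressor ETV6 to RUNX1, a transcription factor of blood development, and is a frequent early lesion of childhood BCP-ALL. Acetylation of lysine 27 of histone H3 marks the nucleosomes that flank active promoters and enhancers, and long acetylated stretches are often found at genes with high activity in a cell type. A peak is a stretch in which the pile-up of ChIP fragments passed the false discovery rate (FDR) cutoff of the peak caller, so a window without a peak held no stretch past that cutoff and need not have been free of acetylation. After removal of duplicate tags, 65241657 ChIP tags remained in REH and 68911420 in 697, a similar depth. The 697 list was nevertheless the longer one, with 101482047 bp under peaks against 67941999 bp in REH. Peak heights in REH bore almost no relation to those in 697 where peaks coincided, so heights and p-values are not compared between the lines. Whether the height, p-value and q-value columns stand on the rows of the peaks they belong to was not determined, which touches every use of a p-value or FDR cutoff below. The values below come from the position columns and are numbers of peaks, their lengths and the bases of a window under peaks.

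H3K27ac covered more of the 5 windows in REH than in 697. REH peaks covered 50992 bp of 372005 bp, which is 13.7%, and 697 peaks covered 16153 bp, which is 4.34%. A single REH peak, at DSC3, made up 18488 bp of the REH value, and 697 had 0 bp there. Every window held a REH peak, whereas 3 of the 5 held a 697 peak, and CLIC5 and DSC3 held none. A window was called higher in a cell line when only this line had a peak there or when the bases under its peaks were at least 2 times those of the other line. By this rule EPOR, CLIC5 and DSC3 were higher in REH, no window was higher in 697, and BIRC7 and TCFL5 differed by less than 2 times.

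This count was read against the whole genome, cut into tiles as wide as each window and restricted to tiles with a peak in either line, since the files hold no gene positions. At the width of the EPOR window, 22.2% of 38745 tiles were higher in REH and 44.9% were higher in 697. At the CLIC5 width the shares were 21.7% and 34.1% of 10414 tiles, and at the DSC3 width they were 22.3% and 39.6% of 21905 tiles. At the BIRC7 width, 22.2% of 42063 tiles were higher in REH and 45.8% in 697. At the TCFL5 width the values were 22.2% and 43% of 31200 tiles. Tiles were thus more often higher in 697 than in REH at each of the 5 widths, while 3 of 5 genes were higher in REH and 0 in 697. Tiles without any 697 peak, as at CLIC5 and DSC3, made up 12.9% at the CLIC5 width and 14.7% at the DSC3 width. Tiles without any REH peak made up 10.8% and 19% at these widths. With 5 genes chosen because they are known for this leukemia, and tiles that are mostly not centred on genes, the shares describe the background and give no test.

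**Figure D1:**
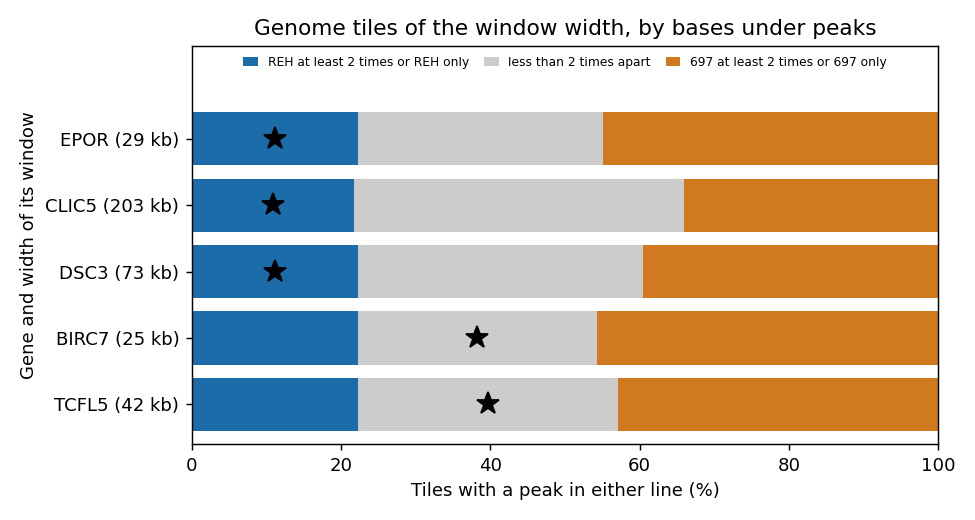
Share of genome tiles (%, horizontal axis) that were higher in REH, less than 2 times apart, or higher in 697 in bases under H3K27ac peaks, for tiles as wide as each gene window and with a peak in either line. Stars mark the category of the gene itself (their place within a segment has no meaning): EPOR, CLIC5 and DSC3 fell in the REH segment, which held 21.7% to 22.3% of tiles, and BIRC7 and TCFL5 in the middle segment.

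**Figure D2:**
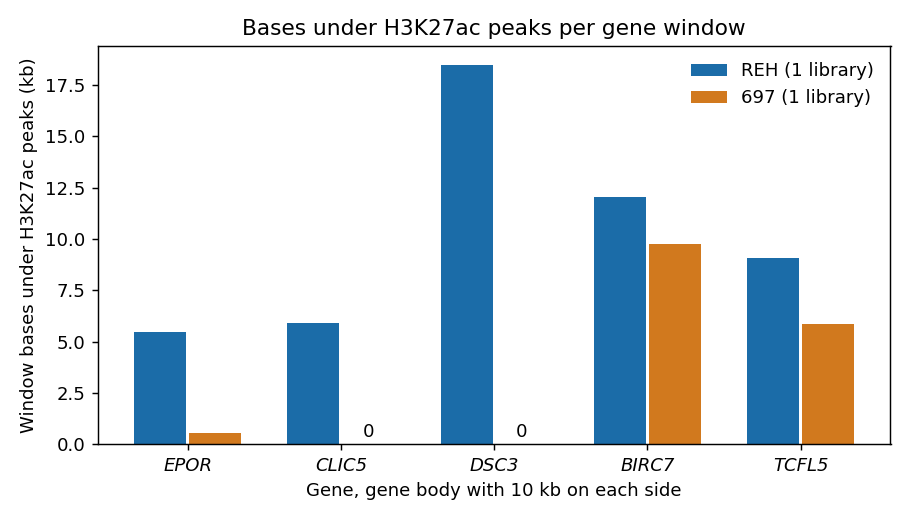
Bases under H3K27ac peaks in each gene window (kb, axis from 0) in REH and 697, with 1 library per cell line. A 0 is written where no base was under a peak. DSC3 had the largest value in REH (18488 bp), and 697 had no peak at CLIC5 or DSC3.

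EPOR encodes the erythropoietin receptor, a surface receptor that signals through JAK2 and STAT5 and is best known from red cell precursors. Its window, chr19:11477000-11506000, held 4 REH peaks and 2 peaks in 697. REH peaks covered 5452 bp (18.8% of the window) and 697 peaks covered 547 bp (1.89%), a ratio of 9.97. The longest REH peak measured 2434 bp and the longest 697 peak 289 bp. That REH peak, chr19:11493360-11495793, ran from 0.207 to 2.64 kb downstream of the rounded 5′ end on the minus strand. Because of the rounding, whether it covers the transcript start cannot be told. The nearest 697 peak was 7704 bp from the rounded 5′ end. A second REH peak of 1019 bp lay upstream, 1.44 to 2.46 kb from the 5′ end, and another of 403 bp lay inside the gene, 4.13 to 4.53 kb from it. None of these 3 peaks was touched by a 697 peak. On GRCh38 the gene RGL3, on the same strand, ends next to the start of EPOR, so the upstream peak lies at a distance at which RGL3 has its 3′ part.

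The only stretch of the EPOR window under peaks of both cell lines lay just past the 3′ end of the gene body. There the 289 bp peak of 697 lay wholly inside a REH peak of 1596 bp, 9.08 to 10.7 kb downstream of the 5′ end of EPOR. On GRCh38 the start of the neighbouring gene SWSAP1 lies 9.68 kb downstream of that of EPOR, so this peak lies at a distance at which another gene starts. The other 697 peak, of 258 bp, was inside the gene and was not met by a REH peak. Within 2 kb of the 5′ end of EPOR, REH peaks covered 2353 bp of 4001 bp (58.8%) and 697 peaks covered 0 bp. With only peaks listed at a −log10(p) of at least 10, EPOR kept 0 bp in REH and 289 bp in 697, a reversal that rests on the p-value column whose rows could not be checked.

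The bases before the start of EPOR are shown because this is where a REH peak and no 697 peak lay nearby. Sequences here and below are the 250 bases upstream of a RefSeq transcript start on GRCh38, on the strand of the gene and from 5′ to 3′, with matches to any of 4 motifs in capitals. The motifs, searched on both strands, were the RUNX core TGTGGT, the ETS core CCGGAAG, the E-box CACGTG and the GATA core AGATAA. Peaks are on hg19 and were not converted, and the 5′ ends are known to 1 kb, so whether a printed stretch lies under a peak was not determined. The EPOR stretch is chr19:11384315-11384564, minus strand.
EPOR: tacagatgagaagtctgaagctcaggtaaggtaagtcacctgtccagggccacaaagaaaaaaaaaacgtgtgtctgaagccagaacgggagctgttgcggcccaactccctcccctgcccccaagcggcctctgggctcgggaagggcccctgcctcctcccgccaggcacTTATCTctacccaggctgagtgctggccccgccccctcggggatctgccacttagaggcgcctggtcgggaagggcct
It holds 1 GATA match, read as TTATCT on the printed strand and beginning 78 bases before the start, and no match to the other motifs. Of 35116 promoters in the RefSeq table, 10.3% hold a GATA match within the 300 bases from 250 before to 50 after the start, so a match is common and is given as a description of the letters only.

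CLIC5 encodes a chloride intracellular channel protein, which is known for its role in the hair cells of the inner ear and at the actin cytoskeleton. Its window, chr6:45856000-46059000, is the widest of the 5, with 203001 bp. REH had 6 peaks there that covered 5896 bp (2.9%), and 697 had none. All 6 REH peaks lay inside the gene, and neither flank had any. None lay near the outer 5′ end: the nearest REH peak was 26918 bp from it, a peak of 1462 bp. The longest, chr6:45982019-45984261, measured 2243 bp and ran from 64.7 to 67 kb downstream of the 5′ end. The other 4 measured 956, 793, 240 and 202 bp. The REH peaks of the CLIC5 window thus lay in the interior of the gene. Over tiles of the same width with a peak in either line, the median was 3435.5 bp under REH peaks and 4627.5 bp under 697 peaks.

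CLIC5 has several transcript starts. In GENCODE v44 on GRCh38 the MANE Select transcript, the one taken to represent the gene, starts 64.5 kb downstream of the gene's outer start. RefSeq lists a further start 49.5 kb upstream of the outer one, which lies outside the window and holds none of the motifs searched. On that side the nearest REH peak outside the window began 38349 bp beyond its edge, which is 10 kb upstream of the 5′ end. That peak is thus near the distance of the further start, and whether it covers this start was not determined. The nearest 697 peak on that side was 1004856 bp from the window. For the inner start at 64.5 kb, the longest REH peak of the window began at 64.7 kb on hg19. Distances are counted within their own build from 5′ ends that differ by the rounding to kb. The stretch before this inner start, chr6:46015861-46016110 on the minus strand, is shown because the longest CLIC5 peak lay at its distance, and it was chosen after the values were seen.
CLIC5 inner start: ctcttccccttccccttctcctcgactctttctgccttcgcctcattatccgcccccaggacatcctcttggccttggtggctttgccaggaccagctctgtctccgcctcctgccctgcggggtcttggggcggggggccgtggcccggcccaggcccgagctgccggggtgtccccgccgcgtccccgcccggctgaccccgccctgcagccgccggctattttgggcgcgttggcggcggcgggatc
This 300-base window has 28 CpG and a GC content of 71%, against medians of 14 and 58.7% over all promoters of the table, and it holds none of the 4 motifs. The outer start has 1 CpG and a GC content of 39.7%. It holds the RUNX core TGTGGT 79 bases before the start, the only RUNX match among the 7 RefSeq promoters of the 5 genes, and 2 GATA matches, 100 and 221 bases before it. The RUNX core is found in 13.1% of all promoters. The outer start, which holds the RUNX match, had no peak within 2 kb in either line, and the region of the inner one had a peak in REH.

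In 697 the lack of peaks extended well beyond CLIC5. The nearest 697 peaks were 146091 bp to the left of the window and 1004856 bp to the right. The stretch without a 697 peak ran from chr6:45709910-47063855, a length of 1353946 bp, in which REH had 29 peaks, 23 of them outside the CLIC5 window. The 697 list has 228 stretches at least as long as this one and the REH list 199. Whether 697 lacks DNA copies here was not tested, because peak lists hold no copy number.

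DSC3 encodes desmocollin 3, a cadherin of the desmosomes that join epithelial cells. Its window, chr18:28560000-28633000, held 1 peak in REH and none in 697. The REH peak, chr18:28605617-28624104, measured 18488 bp and covered 25.3% of the window. It began 1.1 kb upstream of the 5′ end and ran 17.4 kb into the gene on the minus strand, so it covered the start and 32.8% of the gene body without a break. Within 2 kb of the 5′ end it covered 3105 bp of 4001 bp (77.6%), the highest share of the 5 genes in either line. Only 40 REH peaks of the whole list, 0.0896%, were at least as long. Of these 40 peaks, 2 lacked an overlapping 697 peak, DSC3 among them, which is 5% (95% Wilson interval 1.38 to 16.5). The intervals given here cover counting error only, and this comparison was added after the data were seen. That the DSC3 peak is among the 2 follows from a window without a 697 peak and adds nothing to that absence.

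The nearest 697 peaks lay 51851 bp to the left and 444879 bp to the right of the DSC3 window. The stretch without a 697 peak measured 569729 bp and held 5 REH peaks, 4 of them outside the window. The 697 list has 799 stretches at least this long and the REH list 750. The region had few peaks in either line, with 4 REH and 3 peaks of 697 in the 500 kb on each side of the window. The DSC3 peak is listed at a −log10(p) below 10, so at that cutoff REH too had 0 bp, with the same limit on the p-value column. The stretch before the start, chr18:31042743-31042992 on GRCh38, minus strand, is shown because a REH peak lay across the 5′ end.
DSC3: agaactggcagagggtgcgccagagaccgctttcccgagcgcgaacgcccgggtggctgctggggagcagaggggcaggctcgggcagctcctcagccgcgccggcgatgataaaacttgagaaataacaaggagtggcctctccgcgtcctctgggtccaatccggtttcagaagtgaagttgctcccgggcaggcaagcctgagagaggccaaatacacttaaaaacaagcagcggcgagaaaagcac
It holds none of the 4 motifs, and the 300-base window has 25 CpG and a GC content of 63.3%.

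**Figure D3:**
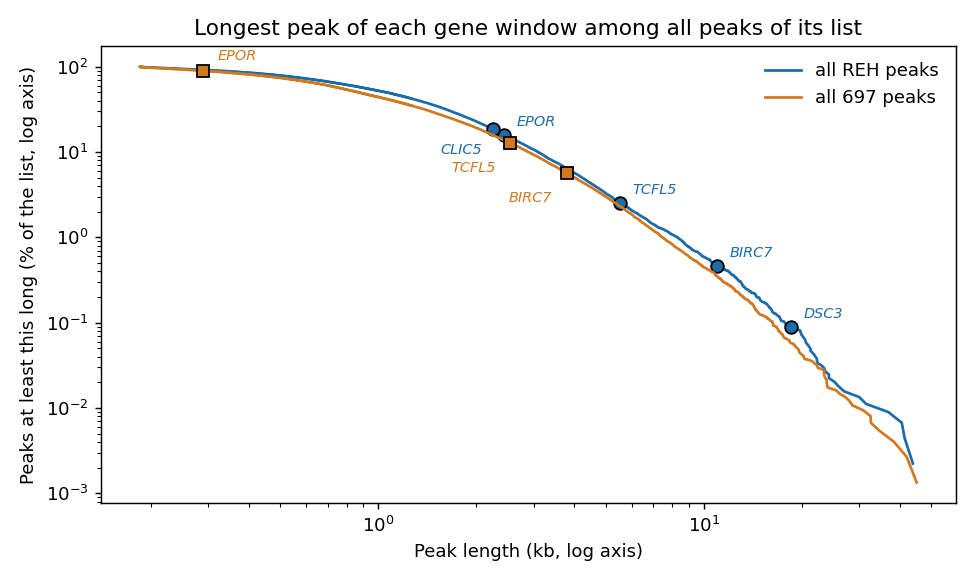
Share of all peaks of a list (%, log axis) that were at least as long as a given length (kb, log axis), for REH and 697 as lines, with the longest peak of each gene window as a point. The DSC3 peak lay farthest right, at 18488 bp, and the longest EPOR and CLIC5 peaks of REH lay where 16% and 18.7% of REH peaks were at least as long.

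BIRC7 encodes livin, an inhibitor of apoptosis protein. Its window, chr20:61857000-61882000, was acetylated in both cell lines. REH had 5 peaks and 12061 bp under peaks (48.2%), and 697 had 6 peaks and 9750 bp (39%), a ratio of 1.24. The lines differed more in where these bases lay. The gene body was under REH peaks for 4327 bp (86.5%) and under 697 peaks for 2422 bp (48.4%). In the 10 kb downstream the values were close, with 6469 bp (64.7%) in REH and 6790 bp (67.9%) in 697. Within 2 kb of the 5′ end REH peaks covered 2522 bp (63%) and 697 peaks 1066 bp (26.6%).

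A single REH peak of 4848 bp, chr20:61866479-61871326, spanned the start of BIRC7 and most of the gene. In 697 the same stretch held a pair of peaks, 1066 bp across the start and 1894 bp in the body from 2.55 kb on, and the bases between them were under no 697 peak. The longest REH peak of the window, 10996 bp, began 9.97 kb downstream of the 5′ end and ran out of the window. Only 0.459% of REH peaks were at least as long. 697 had a pair of peaks of 1887 and 3785 bp wholly inside it, which together covered 51.6% of it. On GRCh38 this side of BIRC7 holds the gene NKAIN4, which ends next to BIRC7 and starts 36.8 kb downstream of its start. At the start of BIRC7 and at the far downstream side, 1 unbroken REH peak thus stood over a pair of 697 peaks. Between them a REH peak of 1439 bp met a 697 peak of 1634 bp. When a peak was counted only if its midpoint lay in the window, the REH peak of 10996 bp and a REH peak of 1543 bp at the other edge dropped out, and the values were 6847 bp in REH and 9750 bp in 697. With peaks within 1000 bp merged, they were 12061 bp in REH and 11449 bp in 697. How far the breaks between 697 peaks come from peak calling was not tested.

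The stretch before the start of BIRC7, chr20:63235655-63235904 on GRCh38, plus strand, is shown because peaks of both cell lines lay across the 5′ end.
BIRC7: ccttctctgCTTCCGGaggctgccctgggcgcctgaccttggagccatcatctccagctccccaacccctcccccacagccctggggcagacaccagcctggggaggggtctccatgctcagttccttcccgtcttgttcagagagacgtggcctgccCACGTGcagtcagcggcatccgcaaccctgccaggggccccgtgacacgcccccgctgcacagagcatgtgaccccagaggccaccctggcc
It holds the ETS core, read as CTTCCGG, beginning 241 bases before the start, and the E-box 92 bases before it. An ETS match is found in 10.3% and this E-box in 7.26% of all promoters.

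TCFL5 encodes a basic helix-loop-helix transcription factor known from the testis. Its window, chr20:61462000-61504000, held 3 REH peaks with 9095 bp (21.7%) and 7 peaks of 697 with 5856 bp (13.9%), a ratio of 1.55. The longest REH peak, chr20:61488190-61493714, measured 5525 bp and began 0.286 kb downstream of the 5′ end on the minus strand. In 697 the longest peak inside the gene, 2425 bp, lay wholly under this REH peak. A separate 697 peak of 495 bp, which no REH peak touched, ended 0.057 kb past the rounded 5′ end, so which of these peaks covers the transcript start cannot be told. Within 2 kb of the 5′ end the cover was 1715 bp (42.9%) in REH and 1456 bp (36.4%) in 697. The start region thus had peaks in both lines, with similar numbers of bases under them, and the longest REH peak reached deeper into the gene.

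In the body of TCFL5, REH peaks covered 6005 bp and 697 peaks 2740 bp. Without the flanks TCFL5 therefore passed the limit of 2 times and 4 of the 5 genes were higher in REH. The flanks went different ways. Upstream, REH had 0 bp and 697 had 716 bp. Downstream, where COL9A3 overlaps the 3′ end of TCFL5 on GRCh38, REH had 3090 bp and 697 had 2400 bp. The RefSeq promoter of TCFL5 has 42 CpG and a GC content of 81.3%, the highest of the 5 genes, and holds none of the 4 motifs. BIRC7 and TCFL5 lie close to each other on chromosome 20, in a region with 68 and 69 REH peaks and 117 and 108 peaks of 697 within 500 kb of each window, so they are not independent examples.

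**Figure D4:**
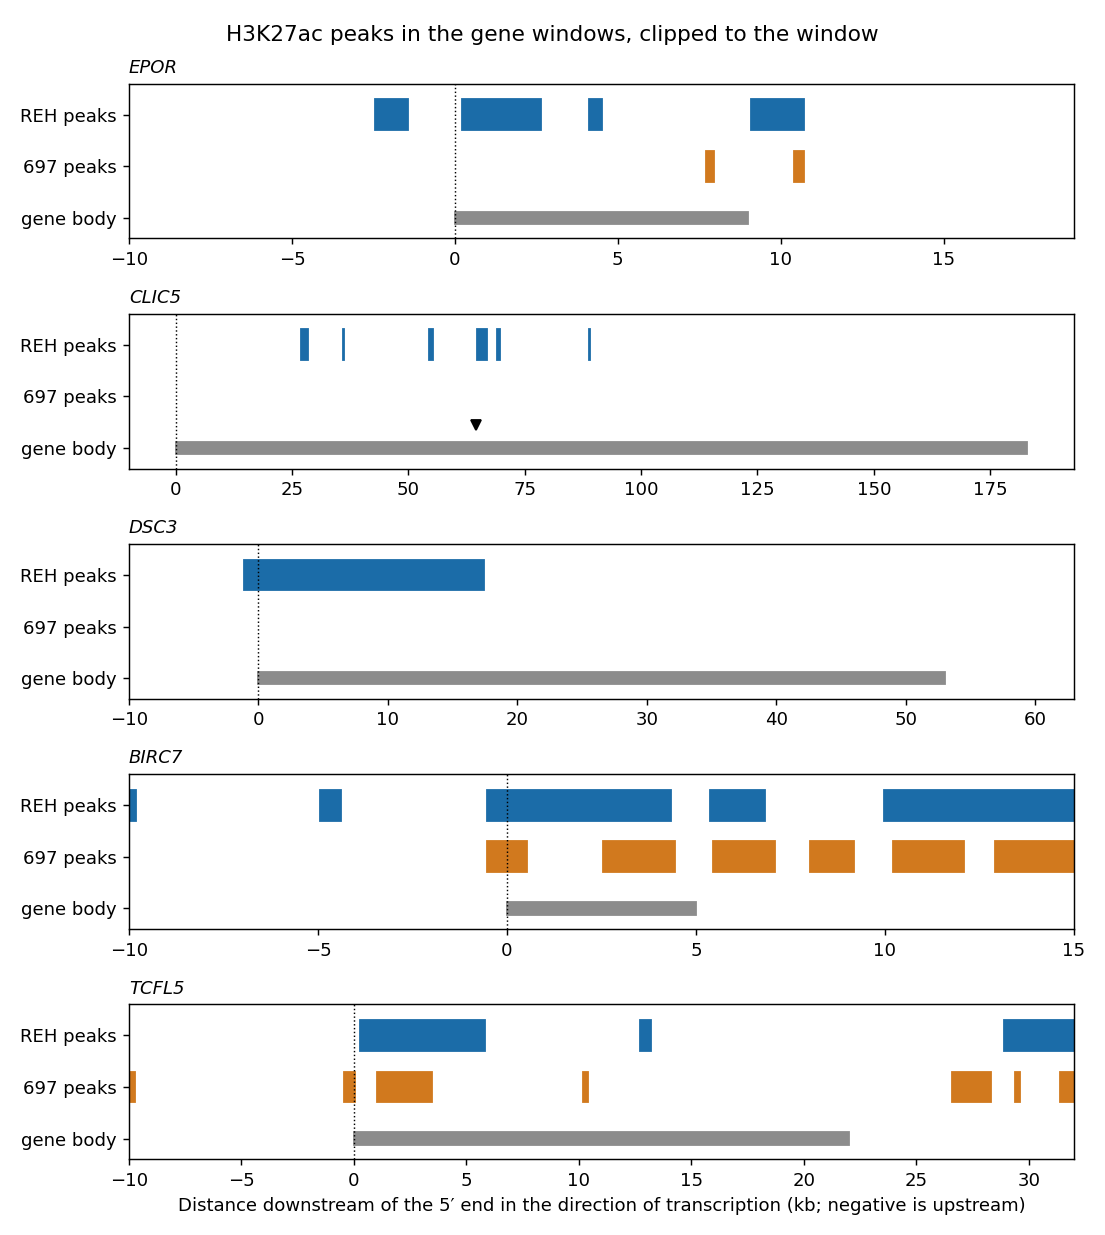
H3K27ac peaks of REH and 697 in each gene window, by distance from the 5′ end of the gene body (kb, positive in the direction of transcription). The drawing shows the gene body, and a triangle at 64.5 kb marks the inner CLIC5 start on GRCh38. In REH, peaks lay within 2 kb of the 5′ end of 4 genes, and in 697 of 2 genes, BIRC7 and TCFL5.

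The genes differed in the peaks at their start regions. No share over all gene starts stands beside these counts, because hg19 gene positions were not at hand. They describe the 5 genes only. Within 2 kb of the 5′ end, REH had a peak at EPOR, DSC3, BIRC7 and TCFL5, and 697 had one at BIRC7 and TCFL5. These counts were the same at 1 kb and at 5 kb. CLIC5 had a peak near its outer 5′ end in neither line.

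The peaks in the 5 windows differed in how often the other cell line met them. Of 19 REH peaks, 7 overlapped a 697 peak, which is 36.8% (95% Wilson interval 19.1 to 59), against 64.1% over the whole REH list. Of 15 peaks in 697, 10 overlapped a REH peak, which is 66.7% (41.7 to 84.8), against 38.9% over the whole list. All 7 of the overlapped REH peaks lay at EPOR, BIRC7 and TCFL5. The peaks of a window are neighbours and not independent, which these intervals do not cover, and the shares were not tested. The median length of the REH peaks was 1462 bp in the windows and 1060 bp in the list, and of the 697 peaks 1314 and 871 bp.

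A long REH peak without a 697 peak over it was uncommon in the list as a whole. Of REH peaks at least as long as the longest peak of EPOR, 12% lacked a 697 peak (854 of 7138). At the length of the longest CLIC5 peak the share was 12.5% (1043 of 8346). At the lengths of the longest BIRC7 and TCFL5 peaks, which 697 peaks overlapped, it was 3.9% (8 of 205) and 6.97% (79 of 1134). The longest REH peaks of EPOR, CLIC5 and DSC3 had no 697 peak over them, which placed each in the smaller group of its length. At CLIC5 and DSC3 this follows from windows without any 697 peak and adds nothing to that absence. The EPOR window held 697 peaks, but none lay over its longest REH peak. EPOR, CLIC5 and DSC3 are also the genes called higher in REH, so these shares are a description and no separate result.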

How the data were processed

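H3K27ac ChIP-seq and input libraries of REH and 697 were used through the peak list of each line. The Methods name Bowtie and, for peak calling, an earlier version of MACS than the file headers, on hg19. The labels name Bowtie2. The file headers name MACS 2.1.0.20150731 in broad mode against input, with q-value cutoffs of 0.05 and 0.1 and 1 tag kept per position. The headers were taken as right. For each peak the authors deposited its position and length in bp, the pileup signal, and p-values and q-values as −log10, per the file headers, with no tag counts, so depth at a peak is unknown. Lengths and positions were used, p and q values only as filters.

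Gene windows were read in kb from the stated positions. Bases under peaks were counted once and clipped to the window. A line was called higher at 2 times or more, or with peaks in 1 line only. Tiles covered chromosomes 1 to 22 and X. All 5 genes are named, and other genes only where GENCODE v44 on GRCh38 places them beside a member. Coordinates were never converted between builds. Promoters of all 5 genes (7 entries) came from the RefSeq table on GRCh38. The stated rule was to print a promoter only where a peak lay within 2 kb of the 5′ end, and the inner CLIC5 start is an exception. Members and lists were chosen with earlier results of these data known. Lists of the erythropoietin receptor pathway and of further ETV6/RUNX1 genes were not run, since they need hg19 positions. Alternatives were other flanks, stricter cutoffs, longer or merged peaks, midpoints, equal peak numbers, all tiles and other fold limits, with 50 kb flanks and the comparison of long peaks added after seeing the data. Scripts were tested on simulated data and run with matplotlib 3.10.9, scipy 1.17.1, pandas 2.3.3 and numpy 2.4.6 under Python 3.11.15.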

Additional observations from a re-analysis of the deposited data

How the results depend on the processing

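The number of genes higher in REH, 3, was 3 with flanks of 5, 25 and 50 kb, at an FDR of at most 5%, with peaks of at least 1000 bp, with equal peak numbers, with merged peaks, with midpoints and at 3 times. It was 4 without flanks and at 1.5 times, and 2 at a −log10(p) of at least 10 (CLIC5 and TCFL5) and when only peaks in 1 line counted (CLIC5 and DSC3). No gene was higher in 697 except at a −log10(p) of at least 10, where 1 was: EPOR, with a REH minus 697 difference of -289 bp. Results at this cutoff rest on a p-value column whose assignment to the rows of the lists was not determined. At that cutoff 2 REH peaks and 1 peak of 697 were left, covering 1.43% and 0.0777% of the windows, and DSC3 and BIRC7 had 0 bp in both lines. With midpoints the BIRC7 difference was -2903 bp. The cause was not tested beyond the peaks dropped.

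The percent of the windows under REH and 697 peaks was 13.4% and 1.99% without flanks (12 and 6 peaks), 13.3% and 3.07% with 5 kb, 13.5% and 5.64% with 25 kb (24 peaks in 697), and 11.2% and 4.99% with 50 kb, chosen after seeing the data (35 and 32 peaks). It was 13.3% and 3.29% at an FDR of at most 5%, 12.7% and 3.94% with peaks of at least 1000 bp (12 REH peaks), and 12.3% and 4.12% with midpoints. For 697 it was 3.94% with equal peak numbers by length and 5.06% with peaks within 1000 bp merged. REH covered more than 697 in each. The FDR cutoff used the q-value column, whose assignment to the rows was not determined either.

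Over all tiles, including those without a peak, the percents higher in REH and in 697 were 8.23% and 16.6% at the EPOR width, 15.1% and 23.8% at that of CLIC5, 11.7% and 20.9% at that of DSC3, 7.69% and 15.9% at that of BIRC7, and 9.58% and 18.6% at that of TCFL5. No paired analysis was possible because each cell line has 1 ChIP library and no test was run. A difference in these lists below the cutoff of the peak caller was not detectable.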

Other observations

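The windows hold transcripts besides the 5 genes. On GRCh38 the microRNA gene MIR3196 lies 2.9 kb downstream of the start of BIRC7, and at that distance on hg19 a REH peak of 4848 bp and a 697 peak of 1894 bp lay. Upstream of BIRC7, REH had a peak of 560 bp, 4.39 to 4.95 kb from the 5′ end, with no 697 peak over it, and 697 had a peak of 1173 bp, 8.01 to 9.18 kb downstream, with no REH peak over it. At the edge of the TCFL5 window, 697 had a peak of 2541 bp that began 9.72 kb upstream of the 5′ end, of which 279 bp lay in the window and 75.1% lay under REH peaks.

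Whether the pileup column stands on the right rows was not determined, so the following are the values listed beside these peaks. The pileup listed for the 19 REH peaks ranged from 9.23 to 37.11, with a median of 22.4 against 21.6 in the whole list. The 15 peaks of 697 ranged from 7.9 to 67.31, with a median of 13.9 against 14.1 in the list. Over 24932 pairs of peaks that overlapped 1 to 1, the Spearman correlation between the lines was 0.025 for pileup and 0.473 for length, a description over peaks that are not independent replicates.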
